A study of Rattus norvegicus with 15 samples.

Results

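The 45 genes described here encode the proteins that copy DNA: the licensing factors that load the replicative helicase onto origins (Orc1, Orc6, Cdc6 and Cdt1), the 6 subunits of that helicase (Mcm2 to Mcm7), the factors that switch it on, the sliding clamp and its loader, the replicative polymerases, the enzymes of the lagging strand, the single-strand binding protein RPA, the enzymes that make deoxynucleotides, and the factors that rebuild chromatin and DNA methylation behind the fork. They were listed by symbol from knowledge of replication, with earlier results of these data known, and all 45 were among the 11574 genes of the deposited count table. The cells were H9c2, a myoblast line from embryonic rat heart, with no genetic change named in the labels. After 24 h of attachment in 10% serum, T0 cultures were taken, and the other cultures were kept in 1% serum for 7 or 14 days, either without retinoic acid (T7-RA and T14-RA) or with 1 µM all-trans retinoic acid (RA) in DMSO given daily in the dark (T7+RA and T14+RA). Each of the 5 groups held 3 cultures, described by the study as biological replicates. No group was kept in 10% serum for 7 or 14 days, so time in culture and low serum cannot be told apart, and the labels do not say whether the -RA cultures received DMSO alone.

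A cell licenses its origins once in each division cycle by loading MCM rings, which the kinases of S phase then turn into working helicases with the help of Cdc45, the GINS complex and Mcm10. Transcription of many of these genes is driven by E2F factors late in G1 and is held down by retinoblastoma family proteins in cells that leave the cycle. H9c2 cells divide in high serum and, when serum is lowered, stop dividing and can fuse into muscle-like tubes, while RA is used to turn them toward a cardiac-like state.

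Libraries held between 508397 and 1030820 counts, and the members held between 47 (Pole2) and 3153 (Rrm1) counts over the 15 libraries, with a median of 432. Levels below are CPM, the counts per 1000000 after TMM scaling, and differences are log2 changes from edgeR's quasi-likelihood test with Benjamini-Hochberg adjustment over all 11574 genes. A gene is said to have fallen or risen where the adjusted p was under 0.001, the study's own threshold, and results at a threshold of 0.05 are named as such. Of 8 myoblast markers 7 were analysed, among them Myod1, which sets the muscle lineage, with a mean of 115 CPM at T0. The summed level of the 7, most of it from markers other than Myod1, was 5607 to 6152 CPM at T0. It was 4299 to 4512 CPM at T7-RA and 4430 to 4456 CPM at T14-RA, and higher with RA, at 5002 to 5167 CPM at T7+RA and 5152 to 5302 CPM at T14+RA, with no overlap at either day. Of 7 cardiomyocyte markers only Gata4 was analysed, at 6.90 to 21.6 CPM over all cultures, none of 5 leukocyte markers was analysed, and the single endothelial marker analysed stayed at or under 6.29 CPM. The 3 of 4 fibroblast markers analysed summed to 175 to 360 CPM over all cultures, from 175 to 207 CPM at T7+RA to 334 to 360 CPM at T14-RA, and Krt8, the 1 of 3 epithelial markers analysed, was at 19.2 to 43.6 CPM. Their part in the results below was not tested.

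The summed level of the 45 genes was 5321, 5356 and 5111 CPM in the T0 cultures, 2901, 2931 and 2927 CPM at T7-RA, and 1942, 2030 and 1851 CPM at T14-RA. With RA it was 2413, 2565 and 2593 CPM at day 7 and 1610, 1650 and 1592 CPM at day 14. The 5 groups did not overlap, and at each day the cultures with RA lay below those without. In bulk RNA, fewer replicating cells and less of these RNAs in each cell cannot be told apart.

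**Figure D1:**
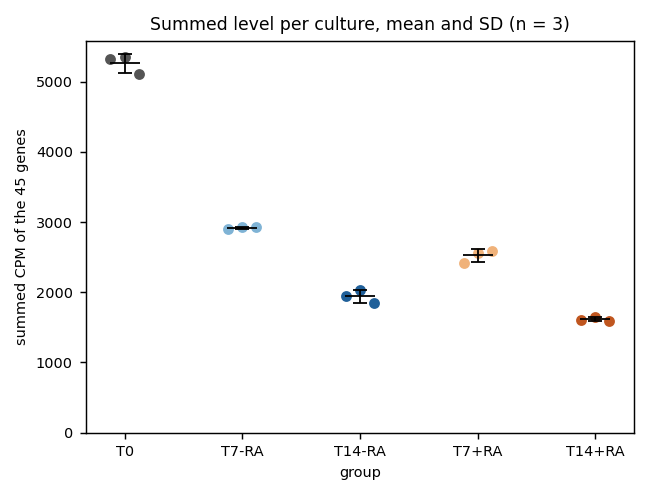
Summed level of the 45 DNA replication genes in CPM (vertical axis, from 0) in each of the 15 cultures, by group. Points are cultures and bars are means with SD. T0 cultures lie between 5111 and 5356 CPM, and T14+RA cultures between 1592 and 1650 CPM.

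At T7-RA, 20 of the 45 genes had fallen from T0 and 0 had risen, where 4.54% of all genes tested fell. At T14-RA, 31 had fallen and 0 had risen, where 7.84% of all genes fell. The median log2 change of the 45 was −0.84 at T7-RA and −1.42 at T14-RA, a 2.67-fold lower level, while the median over all genes was 0.02 and 0.04. At T14-RA 44 of the 45 changes were below 0 (47.7% of all genes were), and in 38 the T14-RA cultures all lay below the T0 cultures, which held for 19.1% of all genes. With RA, against the same T0 cultures, 27 had fallen at day 7 (5.14% of all genes) and 35 at day 14 (9.9% of all genes), with medians of −1.23 and −1.70.

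**Figure D2:**
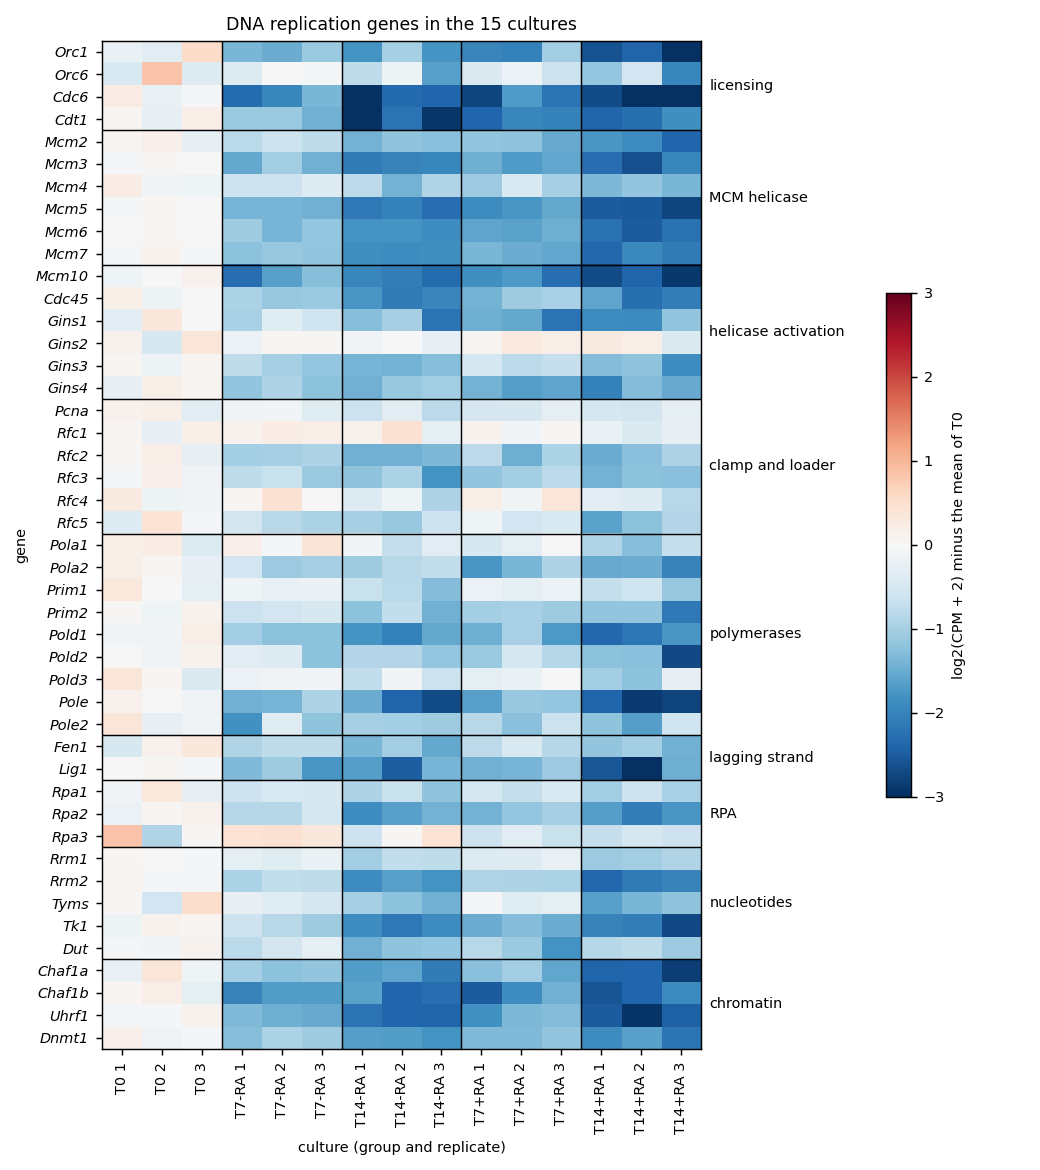
Level of each of the 45 genes in each culture as log2(CPM + 2) minus that gene's mean at T0 (colour, blue for lower), with genes as rows by role and cultures as columns by group. Most rows turn a deeper blue from T0 to T14+RA, while Gins2 and Rfc1 stay pale, as their log2 changes of −0.17 and 0.12 at T14-RA give.

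The licensing factors held the largest changes among the members. Cdt1, which brings MCM rings to origins and is held back by geminin, was at 93.8, 75.0 and 103 CPM at T0, 40.6, 40.3 and 32.0 CPM at T7-RA, and 8.41, 17.7 and 10.2 CPM at T14-RA. The 3 groups did not overlap, and Cdt1 fell at T14-RA by 2.94 on the log2 scale (SE 0.288, edgeR adjusted p = 3.15e-13). Cdc6, the ATPase that joins the origin complex to receive the ring, was at 93.8, 67.5 and 77.6 CPM at T0, 14.31, 18.8 and 29.0 CPM at T7-RA, and 8.41, 14.17 and 13.5 CPM at T14-RA. The 3 groups did not overlap, though the highest T14-RA culture lay just under the lowest T7-RA culture, and Cdc6 fell at T14-RA by 2.77 (SE 0.310, edgeR adjusted p = 3.22e-11). Orc1, the origin complex subunit whose amount follows the cycle in many mammalian cells, also fell, by 1.68, while Orc6 had a log2 change of −0.94 (edgeR adjusted p = 0.0849). The fall of Orc1 did not pass when T0 replicate 3, T14-RA replicate 1 or T14-RA replicate 3 was left out.

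All 6 MCM ring subunits had fallen at T14-RA, with a median log2 change of −1.85, and 5 of the 6 had fallen at T7-RA. Mcm5 was at 337, 355 and 342 CPM at T0, 129, 129 and 126 CPM at T7-RA, and 75.7, 83.2 and 69.4 CPM at T14-RA. Mcm6 was at 360, 373 and 363 CPM at T0, 174, 137 and 163 CPM at T7-RA, and 103, 106 and 98.2 CPM at T14-RA. In both genes the cultures of a group lay close together and the groups were apart, and at T14-RA Mcm5 fell by 2.18 (SE 0.141, edgeR adjusted p = 8.71e-21) and Mcm6 by 1.83 (SE 0.133, edgeR adjusted p = 1.32e-18). Mcm3 and Mcm7 fell by 2.06 and 1.86, and Mcm2 and Mcm4 by 1.32 and 1.02. Mcm4 was the ring subunit that had not passed at T7-RA, with a log2 change of −0.57 (edgeR adjusted p = 0.00157).

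The 6 subunits form 1 ring in equal numbers, so their RNA levels were also set side by side per kilobase of the gene size given in the count table. At T0 the means were 125 ± 2.42 CPM per kb (SD, n = 3) for Mcm6, 119 ± 6.89 for Mcm7, 113 ± 3.04 for Mcm5, 83.8 ± 12.1 for Mcm2, 75.5 ± 10.2 for Mcm4 and 59.9 ± 1.55 for Mcm3, a 2.09-fold range. Mcm6 and Mcm7, Mcm7 and Mcm5, and Mcm2 and Mcm4 each lay within their SDs of one another. At T14-RA the means ran in another order, with Mcm4 at 36.9 ± 8.25 CPM per kb, Mcm6 at 35.2 ± 1.40, Mcm2 at 33.9 ± 2.58 and Mcm7 at 32.6 ± 0.421. Mcm5 was at 24.9 ± 2.27 and Mcm3 at 14.34 ± 0.760, for a 2.58-fold range. Mcm6, Mcm2 and Mcm7 lay within the SD of Mcm4, so their order with Mcm4 was not resolved. These levels rest on 1 size per gene and not on the transcript used, so they order the genes only roughly.

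Promoter sequence from RefSeq (GRCr8, a later build than the Rnor_6.0 used for the counts) was at hand for 39 of the 45 genes, and the 250 bases before each start were searched on both strands for an E2F consensus. The letters searched were TTTCCCGC, TTTCGCGC, TTTGCCGC and TTTGGCGC with their reverse complements, where a forward and a reverse match can overlap. For genes with several starts the first listed was taken. A match was found in 8 of the 39 (20.5%), against 301 of 8608 promoters of genes in the count table (3.50%) and 498 of all 27457 promoters (1.81%). Among members that fell at T14-RA 6 of 27 held a match, and among those that did not pass 2 of 12 did. Counting a match at any listed start, a choice made after seeing the data, adds Uhrf1, at −193 and −99 from another of its starts, which gives 9 of 39 members (23.1%), 7 of 27 and 2 of 12, against 312 of 8608 genes in the count table (3.62%). The 8 with a match at the first start are shown because 4 of them are MCM subunits whose levels are given above. Each is an 80-base window from the gene's own strand with the matched letters in capitals, chosen after the search. The windows run from −80 to −1 from the start, except Mcm6 (−160 to −81) and Pola1 (−200 to −121).
Mcm2 (chr4:122918095-122918174, minus strand): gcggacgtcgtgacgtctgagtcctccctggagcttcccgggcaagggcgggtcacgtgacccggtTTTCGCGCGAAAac
Mcm5 (chr19:13488733-13488812, plus strand): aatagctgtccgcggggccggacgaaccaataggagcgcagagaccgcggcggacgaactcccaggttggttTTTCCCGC
Mcm6 (chr13:42404433-42404512, minus strand): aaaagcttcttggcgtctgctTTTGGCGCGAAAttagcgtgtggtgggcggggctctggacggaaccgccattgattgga
Mcm7 (chr12:22163179-22163258, minus strand): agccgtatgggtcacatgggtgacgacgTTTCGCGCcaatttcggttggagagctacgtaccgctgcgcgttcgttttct
Gins1 (chr3:160184840-160184919, plus strand): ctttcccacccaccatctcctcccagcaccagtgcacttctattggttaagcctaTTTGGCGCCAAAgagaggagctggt
Gins3 (chr19:9434680-9434759, minus strand): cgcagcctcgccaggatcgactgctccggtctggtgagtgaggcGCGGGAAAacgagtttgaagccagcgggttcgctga
Tyms (chr9:120776084-120776163, minus strand): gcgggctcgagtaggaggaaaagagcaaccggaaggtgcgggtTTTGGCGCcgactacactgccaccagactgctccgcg
Pola1 (chrX:62342476-62342555, minus strand): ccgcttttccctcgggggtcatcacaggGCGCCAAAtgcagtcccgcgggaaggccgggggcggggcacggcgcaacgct
Mcm2, Mcm6 and Gins1 held overlapping forward and reverse matches, the forward ones beginning at −14, −139 and −25. Further matches outside the windows shown lay at −213 and −209 in Mcm5, which also overlap, and at −233 in Mcm7. Gins1 and Pola1 held a match and did not pass at T14-RA. A match describes these letters only, and binding was not measured.

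Of the factors that switch the helicase on, 3 of 6 had fallen at T14-RA. Mcm10, which helps the loaded helicase start to unwind DNA, was at 60.7, 65.7 and 73.4 CPM at T0, 11.9, 20.2 and 26.1 CPM at T7-RA, and 15.6, 14.17 and 11.9 CPM at T14-RA. Both later groups lay below T0 and overlapped each other, and Mcm10 fell at T14-RA by 2.22 (SE 0.300, edgeR adjusted p = 9.42e-09). Cdc45, which stays with the moving helicase, was at 59.3, 46.9 and 52.4 CPM at T0 and 14.4, 10.6 and 11.9 CPM at T14-RA, and fell by 2.07 (SE 0.311, edgeR adjusted p = 1.37e-07).

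The 4 GINS subunits, which complete the active helicase with Cdc45, differed in their values. Gins3 fell at T14-RA by 1.50 on the log2 scale, though the call did not pass with any 1 of the T0 replicates 1 and 3 or of the 3 T14-RA cultures left out. Gins2 was at 35.9, 22.5 and 41.9 CPM at T0 and 30.0, 31.9 and 27.1 CPM at T14-RA, so that the groups overlapped, with a log2 change of −0.17 (95% interval −0.74 to 0.40, edgeR adjusted p = 0.699). Gins1 and Gins4 had adjusted p-values of 0.00324 and 0.00281 in edgeR at T14-RA, with all 3 T14-RA cultures below T0.

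Of the clamp and its loader, 2 of 6 had fallen at T14-RA, with a median log2 change of −0.78. Rfc2, a small subunit of the clamp loader RFC, was at 86.9, 97.6 and 71.3 CPM at T0 and 30.0, 30.1 and 32.2 CPM at T14-RA, and fell by 1.48 (SE 0.231, edgeR adjusted p = 3.88e-07). Rfc3, another small subunit, fell by 1.32 (SE 0.232, edgeR adjusted p = 4.07e-06), from 77.3, 90.1 and 75.5 CPM to 33.6, 40.7 and 22.0 CPM. Rfc1, the large subunit, was at 78.6, 63.8 and 85.9 CPM at T0 and 82.9, 103 and 62.7 CPM at T14-RA, with a log2 change of 0.12 (95% interval −0.26 to 0.50, edgeR adjusted p = 0.686). Of the 5 RFC subunits, Rfc2 and Rfc3 fell, and in Rfc1 and Rfc4 the groups overlapped. Rfc5, the other small subunit, was at −0.95 (edgeR adjusted p = 0.00151).

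Pcna, the sliding clamp itself and a common marker of dividing cells, was at 152, 156 and 111 CPM at T0, 129, 130 and 106 CPM at T7-RA, and 87.7, 110 and 79.6 CPM at T14-RA. The T14-RA cultures lay just below T0, and the log2 change of −0.62 did not pass 0.001 (edgeR adjusted p = 0.00215). Per kilobase of gene size Pcna stood at 120 ± 21.3 CPM at T0 and 79.6 ± 13.5 CPM at T14-RA (SD, n = 3).

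**Figure D3:**
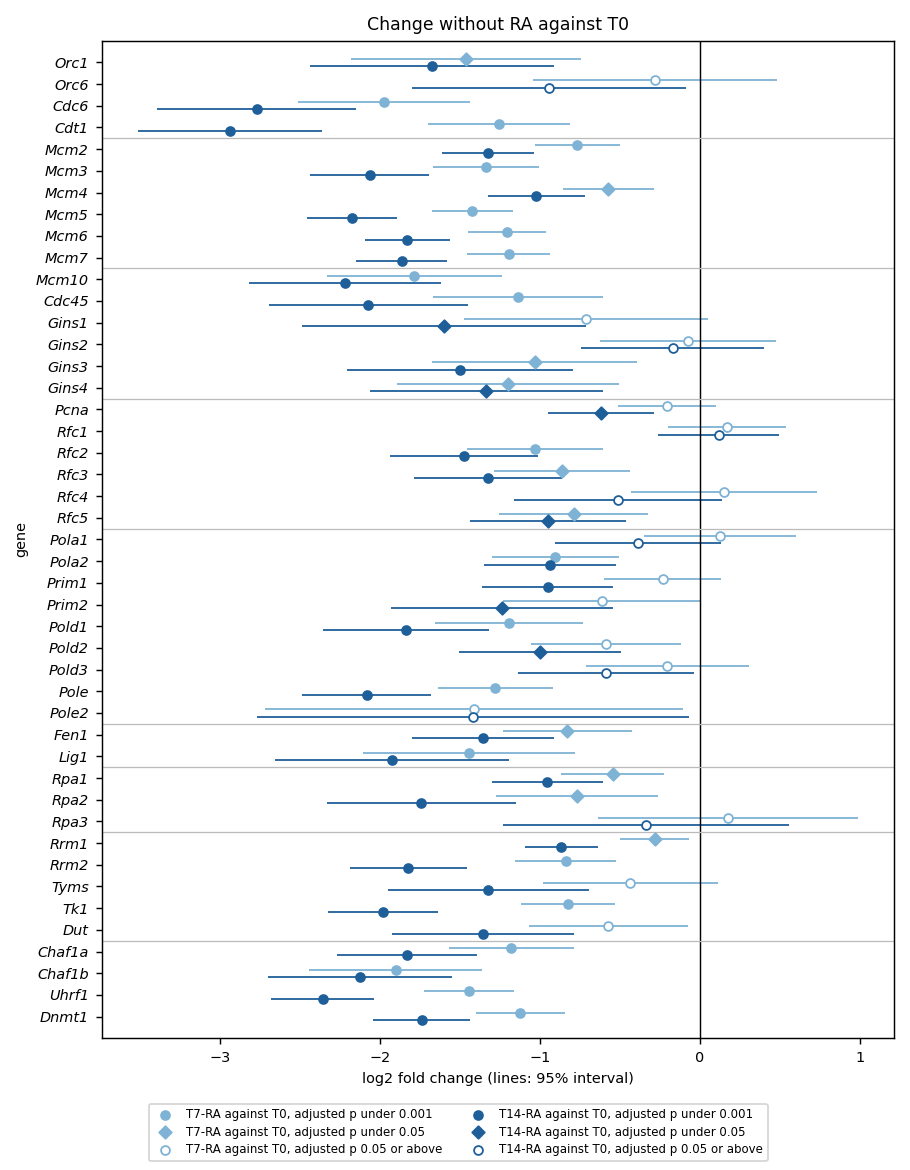
Log2 change from T0 (horizontal axis) with 95% intervals for each of the 45 genes at T7-RA and T14-RA, by role. Filled circles passed an adjusted p of 0.001 in edgeR, diamonds passed 0.05 and open circles did not. Cdt1 and Cdc6 lie farthest left at T14-RA, at −2.94 and −2.77, and Rfc1 lies at 0.12.

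Of the 9 polymerase genes 4 had fallen at T14-RA. Pole, the catalytic subunit of the leading-strand polymerase, was at 204, 184 and 172 CPM at T0, 66.8, 69.9 and 97.3 CPM at T7-RA, and 64.9, 33.7 and 27.1 CPM at T14-RA, and fell by 2.08 (SE 0.202, edgeR adjusted p = 3.97e-13). Pold1, the catalytic subunit of the polymerase that copies the lagging strand, fell by 1.84 (SE 0.259, edgeR adjusted p = 3.09e-08), from 71.7, 73.2 and 90.1 CPM to 21.6, 17.7 and 25.4 CPM. In both genes each later culture lay below each T0 culture. Pola2 and Prim1, subunits of the primase complex that lays down primers, fell by 0.94 and 0.95, and both calls were lost with T0 replicate 1 left out, that of Pola2 also without T14-RA replicate 1 and that of Prim1 without T14-RA replicate 3. Pola1, the catalytic subunit of that complex, had a 95% interval of −0.90 to 0.13 (edgeR adjusted p = 0.269).

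Both genes of the lagging strand had fallen at T14-RA. Fen1, the nuclease that trims the flap ahead of each Okazaki fragment, was at 69.0, 107 and 124 CPM at T0 and 36.0, 46.0 and 32.2 CPM at T14-RA, and fell by 1.36 (SE 0.222, edgeR adjusted p = 9.74e-07). Lig1, the ligase that seals the fragments, was at 38.6, 39.4 and 37.7 CPM at T0 and 10.8, 5.31 and 13.5 CPM at T14-RA, and fell by 1.92 (SE 0.366, edgeR adjusted p = 1.92e-05). In both the T14-RA cultures all lay below T0.

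RPA coats single-stranded DNA at the fork and in repair. Rpa2, its middle subunit, was at 46.9, 54.4 and 58.7 CPM at T0 and 13.2, 15.9 and 18.6 CPM at T14-RA, and fell by 1.74 (SE 0.297, edgeR adjusted p = 2.31e-06). Rpa1, the large subunit, was at 137, 178 and 122 CPM at T0 and 74.5, 90.3 and 61.0 CPM at T14-RA, and fell by 0.95 (SE 0.174, edgeR adjusted p = 9.15e-06). Neither had passed at T7-RA, and Rpa3, the small subunit, had an adjusted p of 0.616 in edgeR at T14-RA on 119 counts over the 15 libraries.

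All 5 genes of deoxynucleotide supply among the members had fallen at T14-RA, and 2 of them at T7-RA. Tk1, the thymidine kinase of S phase, was at 189, 227 and 220 CPM at T0, 136, 118 and 100 CPM at T7-RA, and 56.5, 46.0 and 55.9 CPM at T14-RA. Its 3 groups did not overlap, and it fell at T14-RA by 1.98 (SE 0.172, edgeR adjusted p = 3.47e-15). Rrm2, the ribonucleotide reductase subunit made in S phase, was at 161, 144 and 149 CPM at T0 and 39.6, 47.8 and 42.3 CPM at T14-RA, and fell by 1.82 (SE 0.183, edgeR adjusted p = 7.59e-13). Rrm1 was at 447, 426 and 409 CPM at T0 and 207, 253 and 251 CPM at T14-RA. Rrm1, its steadier partner, thus fell by 0.87. Dut and Tyms, which make and use dUMP, fell by 1.36 and 1.32, and the Tyms call was lost with any 1 of 5 cultures left out and the Dut call with T14-RA replicate 1 left out.

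All 4 chromatin genes had fallen at both days without RA. Uhrf1, which reads hemimethylated DNA behind the fork, was at 269, 265 and 298 CPM at T0, 109, 99.4 and 95.9 CPM at T7-RA, and 57.7, 51.4 and 50.8 CPM at T14-RA, and fell at T14-RA by 2.36 (SE 0.162, edgeR adjusted p = 1.06e-19). Dnmt1, the methyltransferase that Uhrf1 recruits, was at 276, 229 and 237 CPM at T0 and 76.9, 76.2 and 69.4 CPM at T14-RA, and fell by 1.74 (SE 0.153, edgeR adjusted p = 5.09e-15). In both genes the groups at T0, T7-RA and T14-RA did not overlap. Chaf1a and Chaf1b, subunits of the histone chaperone CAF-1, fell by 1.83 and 2.13.

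**Figure D4:**
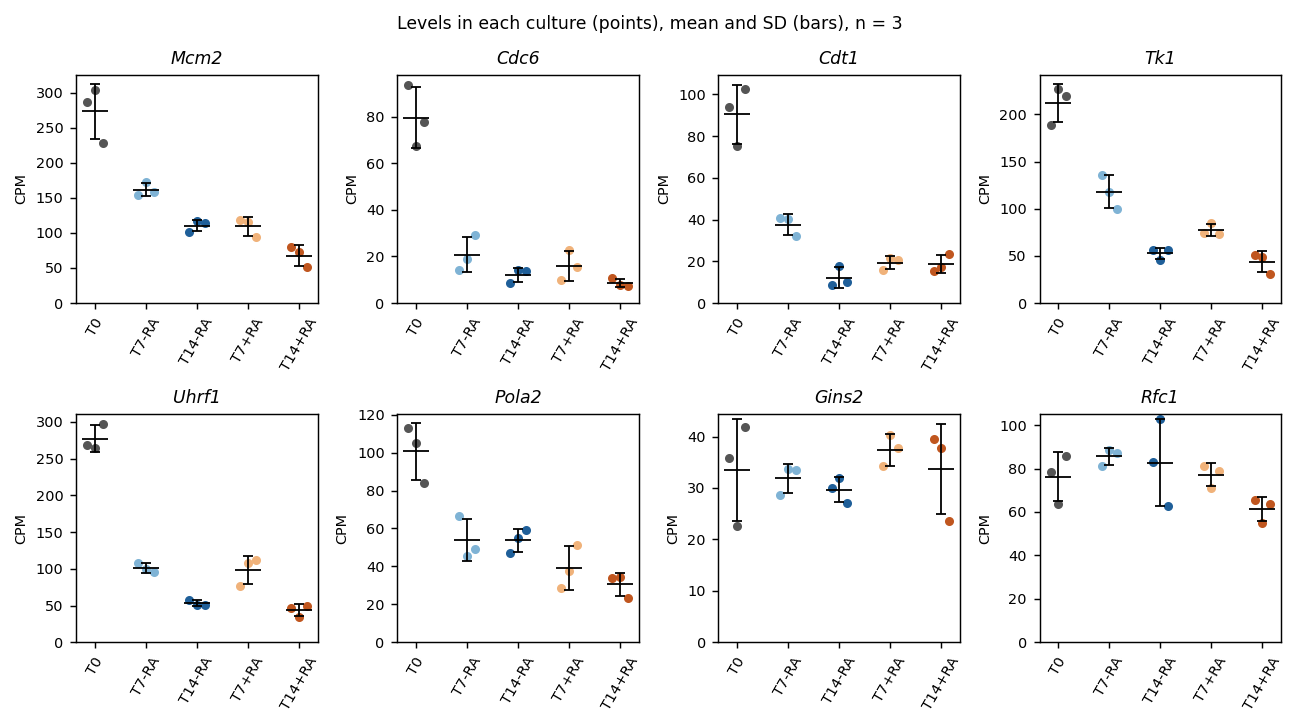
Levels in CPM (vertical axes, from 0) of Mcm2, Cdc6, Cdt1, Tk1, Uhrf1, Pola2, Gins2 and Rfc1 in each of the 15 cultures, by group, with points for cultures and bars for mean and SD. Uhrf1 steps down from 265 to 298 CPM at T0 to 50.8 to 57.7 CPM at T14-RA, while Gins2 cultures at T0 (22.5 to 41.9 CPM) enclose those at T14-RA.

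Of the 14 members that did not pass 0.001 at T14-RA, 8 had an adjusted p of 0.05 or above in edgeR: Orc6, Gins2, Rfc1, Rfc4, Pola1, Pold3, Pole2 and Rpa3. The other 6 were Gins1, Gins4, Pcna, Rfc5, Prim2 and Pold2, whose T14-RA cultures all lay below T0. Their log2 changes ran from −1.60 (Gins1, 95% interval −2.49 to −0.71) to −0.62 (Pcna, 95% interval −0.95 to −0.29). Pole2, with the fewest counts, was at −1.42 with an interval of −2.77 to −0.07.

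With RA and against the same T0 cultures, the largest changes at T14+RA were in Orc1, which fell by 3.19, and Cdc6, which fell by 3.14. Orc1 was at 29.0, 26.3 and 50.3 CPM at T0 and 3.86, 4.71 and 1.81 CPM at T14+RA. The log2 change at T14+RA was −2.60 in Mcm5, −2.65 in Uhrf1, −2.71 in Pole and −2.31 in Cdt1, beside −2.18, −2.36, −2.08 and −2.94 at T14-RA. Gins1, Gins4, Rfc5, Prim2 and Pold2 passed 0.001 at T14+RA, but with T14+RA replicate 1 left out Gins1, Gins4, Rfc5 and Prim2 did not, nor did Gins1 without T0 replicate 2 or T14+RA replicate 2, or Prim2 without T0 replicate 1, T0 replicate 3 or T14+RA replicate 3. Dut was at −0.92 (edgeR adjusted p = 0.00362). Both comparisons use the T0 cultures, so these values are not independent of those without RA, and the test of RA itself is given below.

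Between day 7 and day 14 fewer of these genes passed than between T0 and either day. Without RA, 6 of the 45 fell from T7-RA to T14-RA, where 1.09% of all genes fell, and the median log2 change was −0.58 with all 45 below 0 (44 with limma-voom and with relative log expression size factors), as 49.8% of all genes were. They were Tk1, which fell by 1.16 (edgeR adjusted p = 2.07e-06), Cdt1, Rrm1, Rrm2, Uhrf1 and Mcm5. The count was 2 or 3 with T7-RA replicate 1, 2 or 3 or T14-RA replicate 1 or 3 left out. With RA, 7 fell from T7+RA to T14+RA, where 2.26% of all genes fell, with the lowest p in Rrm2, which fell by 1.31 (edgeR adjusted p = 1.62e-06), and the largest change in Pole, which fell by 1.38 (edgeR adjusted p = 2.15e-05). Mcm5, Uhrf1, Rrm1 and Rrm2 were called in both, which is 4 of the 6 and 4 of the 7. With T14-RA replicate 1 left out none of these 4 was called without RA. Whether the second week differed with and without RA is the same contrast as the difference between the RA effects at day 14 and day 7, given below.

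RA itself was compared within each day, between cultures that had spent the same time in low serum. At day 7, 0 of the 45 genes passed 0.001 in edgeR, while 9 had an unadjusted p under 0.05 (17.2% of all genes did), and DESeq2 and limma-voom also gave 0. At day 14, 0 passed in edgeR, 9 had an unadjusted p under 0.05 (21.6% of all genes did), and DESeq2 and limma-voom again gave 0. Both counts of 9 are near those shares. Of all genes, 1.3% fell with RA at day 7 and 2.35% at day 14 at the same threshold. At a threshold of 0.05, 3 were lower with RA at day 7 (3.28% of all genes) and 3 at day 14 (5.74% of all genes). The log2 change was below 0 in 38 of the 45 at day 7 and in 36 at day 14 (52.6% and 50.4% of all genes), with medians of −0.18 and −0.32. In 31 it was below 0 at both days, where 33% of all genes were, and in 2 it was above 0 at both.

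Mcm2 was at 154, 172 and 158 CPM at T7-RA and 118, 115 and 94.3 CPM at T7+RA, and at 101, 117 and 113 CPM at T14-RA and 80.1, 72.3 and 50.8 CPM at T14+RA. At both days each RA culture lay below each culture without RA. The log2 change was −0.55 at day 7 (SE 0.149, edgeR adjusted p = 0.00933) and −0.65 at day 14 (SE 0.172, edgeR adjusted p = 0.00575). The day 7 value missed 0.05 without T7-RA replicate 2 or T7+RA replicate 3, and the day 14 value without T14+RA replicate 3 (adjusted p up to 0.0940 and 0.0599). In the additive model of time and RA over both days, the form the study used, Mcm2 fell with RA by 0.59 (SE 0.114, edgeR adjusted p = 6.15e-05), 1 of 45 members called where 3.07% of all genes fell. All 21 alternatives passed 0.001 for Mcm2, with values between −0.64 and −0.53.

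Over both days 6 members, Mcm2 among them, were lower at 0.05, where 7.3% of all genes were. The other 5 passed 0.05 but not 0.001. They were Mcm6 at −0.43 (edgeR adjusted p = 0.00245), Pola2 at −0.62 (edgeR adjusted p = 0.00622), Tk1 at −0.47 (edgeR adjusted p = 0.00992), Mcm5 at −0.36 (edgeR adjusted p = 0.0219) and Pola1 at −0.54 (edgeR adjusted p = 0.0374). Of 21 alternatives Mcm6 and Pola2 passed 0.05 in 21. Tk1 passed in 20, the exception being T7-RA replicate 1 left out. Mcm5 passed in 17 (adjusted p up to 0.0747), and missed in DESeq2 and without T14+RA replicate 3, T14-RA replicate 2 or T7+RA replicate 1. Pola1 passed in 12 (adjusted p up to 0.140), and missed in DESeq2 and without replicate 1 or 3 of T7-RA, replicate 1 or 3 of T14-RA, replicate 1 or 2 of T7+RA, or replicate 1 or 2 of T14+RA. Mcm5 was at 129, 129 and 126 CPM at T7-RA and 91.2, 102 and 117 CPM at T7+RA, and at 75.7, 83.2 and 69.4 CPM at T14-RA and 59.8, 58.1 and 48.9 CPM at T14+RA. Mcm6 was at 174, 137 and 163 CPM at T7-RA and 121, 118 and 130 CPM at T7+RA, and at 103, 106 and 98.2 CPM at T14-RA and 75.2, 62.9 and 76.1 CPM at T14+RA. At day 14 alone Mcm6 was lower with RA at 0.05, which held in 15 of 21 alternatives (adjusted p up to 0.137). Its log2 change over these ran from −0.57 to −0.43. Mcm2, Mcm5, Mcm6 and Mcm7 had RA cultures wholly below the others at both days. Over all 45 members this held for 12 at day 7 and 11 at day 14, where it held for 12.6% and 13.9% of all genes.

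Tk1 was at 136, 118 and 100 CPM at T7-RA and 74.1, 84.6 and 73.7 CPM at T7+RA, and at 56.5, 46.0 and 55.9 CPM at T14-RA and 51.1, 48.7 and 30.8 CPM at T14+RA. Its groups were apart at day 7, where the log2 change was −0.61 (edgeR adjusted p = 0.0108), and overlapped at day 14. The day 7 value passed 0.05 in 17 of 21 alternatives (adjusted p up to 0.142), and missed in DESeq2 and without T7-RA replicate 1 or T7+RA replicate 1 or 3. Pola2 was at 66.8, 45.7 and 49.4 CPM at T7-RA and 28.5, 37.6 and 51.4 CPM at T7+RA, and at 46.8, 54.9 and 59.3 CPM at T14-RA and 33.8, 34.6 and 23.6 CPM at T14+RA. Here the groups overlapped at day 7 and were apart at day 14, at −0.76 (edgeR adjusted p = 0.0311). The day 14 value passed 0.05 in 16 of 21 alternatives (adjusted p up to 0.133), and missed in DESeq2 and without T14-RA replicate 2 or 3 or T14+RA replicate 1 or 3. Pola1 was at 50.1, 43.0 and 59.5 CPM at T7-RA and 31.4, 36.2 and 44.6 CPM at T7+RA, and at 42.0, 26.6 and 35.6 CPM at T14-RA and 23.2, 17.3 and 27.2 CPM at T14+RA, so that its groups overlapped at both days.

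**Figure D5:**
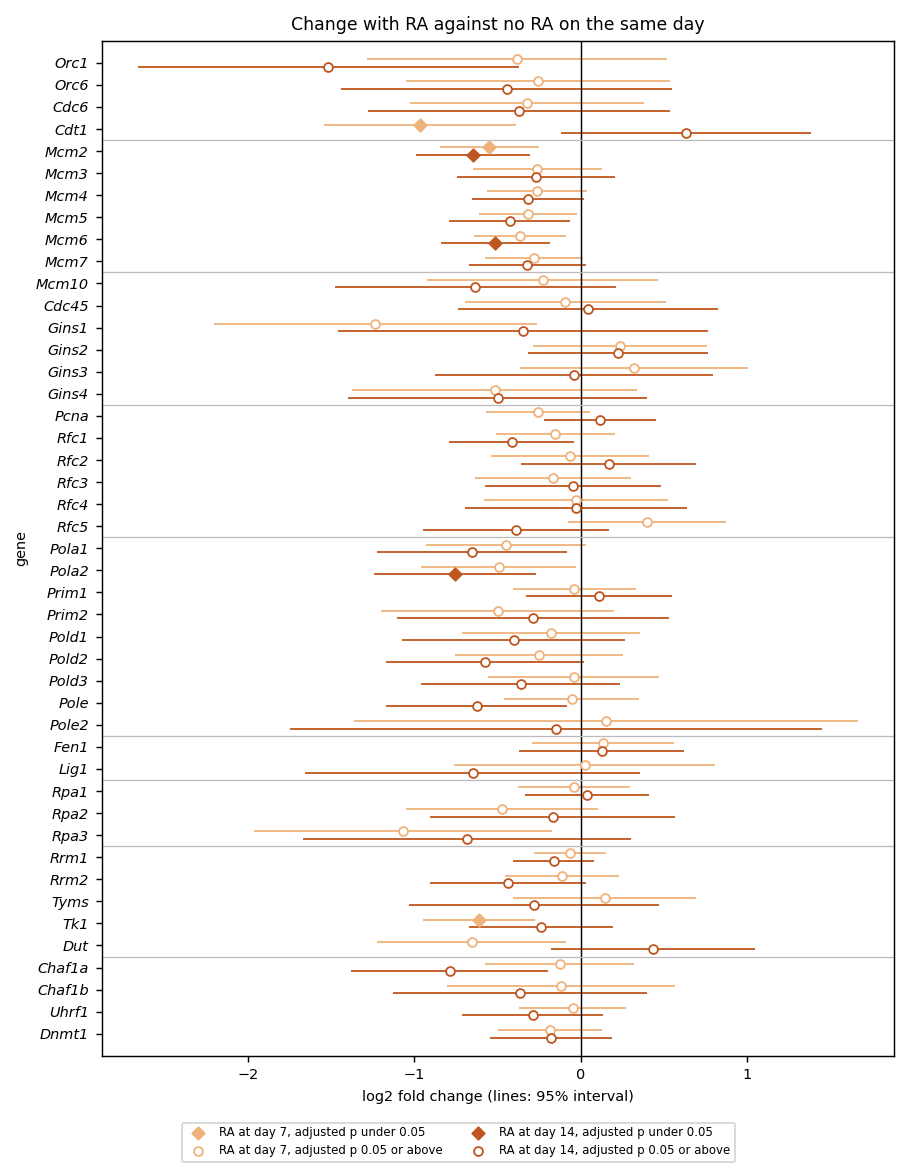
Log2 change with RA (horizontal axis) with 95% intervals for each of the 45 genes at day 7 and day 14, by role. Diamonds passed an adjusted p of 0.05 in edgeR and open circles did not. Mcm2 is at −0.55 and −0.65, and Cdt1 lies on opposite sides of 0 at the 2 days.

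Cdt1 was at 40.6, 40.3 and 32.0 CPM at T7-RA and 15.7, 21.5 and 20.6 CPM at T7+RA, a log2 change of −0.97 (SE 0.289, edgeR adjusted p = 0.0225), which held at 0.05 in 16 of 21 alternatives (adjusted p up to 0.147), and missed in DESeq2 and without T7-RA replicate 1 or 2 or T7+RA replicate 1 or 3. At day 14 it was at 8.41, 17.7 and 10.2 CPM without RA and 15.4, 17.3 and 23.6 CPM with it, overlapping, at 0.63 (edgeR adjusted p = 0.353). The difference between the days was 1.60 (edgeR adjusted p = 0.113). Over the 45 members, 0 had a difference between the days at 0.05 in edgeR, 3 had an unadjusted p under 0.05 (8.35% of all genes did), and 0.743% of all genes passed at 0.05. No member was shown to respond to RA otherwise at day 14 than at day 7.

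Further genes of replication and its control were taken as lists. Of 36 other replication genes 35 were analysed, and at T14-RA 11 had fallen (7.84% of all genes fell) and 0 had risen, with a median log2 change of −0.75. Timeless, which keeps the helicase and polymerases together, was at 139, 139 and 161 CPM at T0 and 26.4, 33.7 and 33.9 CPM at T14-RA, and fell by 2.24 (edgeR adjusted p = 1.24e-13). Chtf18, of an alternative clamp loader, fell by 2.61 (edgeR adjusted p = 1.44e-09), and Ssrp1, a subunit of the histone chaperone FACT, fell by 1.01 (edgeR adjusted p = 1.77e-11). At T7-RA 4 of the 35 had fallen, where 4.54% of all genes fell, and 0 passed 0.001 with RA at either day in edgeR, with 2 and 4 at an unadjusted p under 0.05 at day 7 and day 14, where 17.2% and 21.6% of all genes were.

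Of 10 further genes of nucleotide supply only Umps, of pyrimidine synthesis, had fallen at T14-RA, by 1.12, a share near the 7.84% of all genes. Nme1, a nucleoside diphosphate kinase, was at −0.48 (edgeR adjusted p = 0.0211), and at −0.22 with T0 replicate 2 left out (edgeR adjusted p = 0.359).

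Of 17 E2F and retinoblastoma pathway genes 16 were analysed, and 4 had fallen at T14-RA, where 7.84% of all genes fell, and 0 had risen. Rbl1, the retinoblastoma relative p107, was at 46.9, 43.2 and 41.9 CPM at T0 and 7.21, 5.31 and 0 CPM at T14-RA, and fell by 3.24 (edgeR adjusted p = 4.29e-09). Over its 22 alternatives the log2 change ran from −3.99 to −2.35, so its size is only roughly known. E2f7, a repressor of the family, fell by 2.67 (edgeR adjusted p = 1.67e-07), and Ccna2, the cyclin of S phase and G2, fell by 1.51 (edgeR adjusted p = 9.72e-07). With RA, 0 of the 16 passed 0.001 at day 7 or over both days in edgeR, where 367 and 740 of all 11574 genes did. An unadjusted p under 0.05 was held by 1 of the 16 at day 7 and 2 over both days, where 1996 and 2868 of all genes held it. In the comparison at day 14, 1 fell, where 2.35% of all genes fell. At day 14 E2f2, an activator of the family, fell by 1.75 (SE 0.394, edgeR adjusted p = 0.000765), from 30.0, 33.7 and 18.6 CPM at T14-RA to 9.65, 6.29 and 7.25 CPM at T14+RA, with no overlap between the groups. The E2f2 call was lost in 8 of 21 alternatives, with an adjusted p of at most 0.0100: in DESeq2, in limma-voom, and with T7-RA replicate 1, T14-RA replicate 1 or 2, or any 1 of the 3 T14+RA cultures left out. Rbl1 was the gene of that list higher with RA at day 14 at a threshold of 0.05, at 7.21, 5.31 and 0 CPM without RA and 10.6, 11.0 and 21.8 CPM with it, a log2 change of 1.56 (SE 0.522, edgeR adjusted p = 0.0392, up to 0.251 over its 21 alternatives).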

How the data were processed

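RNA of 15 H9c2 cultures was read as stranded mRNA libraries. Per the submitters' notes, the authors trimmed reads, aligned them with HISAT2 to Rnor_6.0 and counted them per gene with featureCounts. Tool versions, and whether counting used strand, are not given in the sources used here, so reads from overlapping or antisense genes may be mixed. The deposited table holds raw counts for 11574 genes above a sum of 20 counts, and a gene size (other, in bases, the authors' value). Here counts were TMM-scaled and fitted by group with edgeR 4.0.16 (quasi-likelihood, R 4.3.3), and the RA term also in an additive model of time and RA. The common dispersion was 0.00781, a biological coefficient of variation of 8.84%. Chi-square per gene was at least 1.07 for each pair of replicates (p at most 2.31e-07), so no pair was merged. The fit was tested on simulated data. Alternatives were DESeq2 1.42.0, limma 3.58.1 voom, other scalings, filterByExpr, a replicate block and each library left out. The members and lists were chosen with earlier results of these data known. Genes named with full values were the 2 of lowest p per role at T14-RA against T0, those passing 0.05 with RA, and the 3 of lowest p per further list; others were named after their values were seen, to describe members that did not pass. After each gene's group mean was taken off, the deviations of same-numbered cultures had a mean correlation of 0.018. Dna2 and E2f1 were not analysed here. A gene that the rule would name in a further list is not reported here.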

Additional observations from a re-analysis of the deposited data

Results flagged for a closer look

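Dut, the dUTPase that keeps uracil out of DNA, had values with RA on opposite sides of those without RA at the 2 days, and neither the changes nor their difference passed the test. It was at 28.6, 34.9 and 42.1 CPM at T7-RA and 28.5, 22.8 and 13.7 CPM at T7+RA, and at 18.0, 21.3 and 22.0 CPM at T14-RA and 28.0, 29.9 and 23.6 CPM at T14+RA. All 3 RA cultures lay below those without at day 7 and above them at day 14. The log2 changes were −0.66 (edgeR adjusted p = 0.191) and 0.44 (edgeR adjusted p = 0.465), and their difference of 1.09 did not pass (edgeR adjusted p = 0.363).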

How the results depend on the processing

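No count, median or change of a named gene with an adjusted p under 0.05 reversed. The 45 of 45 changes below 0 in T14-RA against T7-RA became 44 with voom and with relative log expression size factors. At a threshold of 0.05 the calls numbered 14 in T14-RA against T7-RA (6 at 0.001), 15 in T14+RA against T7+RA (7), 3 with RA at day 7 (0), 3 at day 14 (0) and 6 over both days (1). Of all 11574 genes, 902, 1315, 858, 1291 and 1701 passed 0.05 in these comparisons, in either direction. At 0.001 these numbers were 342, 540, 367, 557 and 740. DESeq2 called 2 in T14-RA against T7-RA. The median change at T7-RA was −0.727 with library size only. The median with RA at day 14 was −0.304 with voom, −0.339 with library size only and −0.334 with filterByExpr, which left out Pole2. The causes were not tested. Library size only moved the median of all genes to 0.13 at T7-RA and 0.14 at T14-RA. With each library left out, calls ranged from 16 to 20 (T7-RA against T0), 26 to 32 (T14-RA against T0), 2 to 7 (T14-RA against T7-RA), 18 to 27 (T7+RA against T0), 28 to 35 (T14+RA against T0) and 5 to 8 (T14+RA against T7+RA), 1 to 1 with RA over both days, and 0 to 0 with RA at either day and for the difference between days. Medians ranged from −0.93 to −0.78 at T7-RA, −1.47 to −1.38 at T14-RA, −0.24 to −0.13 with RA at day 7 and −0.34 to −0.26 at day 14. Of 4277 alternative values for single genes, 4009 kept their side of the threshold, 191 lost it and 77 gained it. They came from 191 pairs of gene and comparison with a main adjusted p under 0.05. The threshold of 0.05 was counted as an alternative too, with an outcome fixed by that choice. Fits without a library outside the comparison were also counted, so this tally does not measure how stable the calls were.

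With the replicate number as a block, calls were 23 at T7-RA and 32 at T14-RA against T0, 7 in the second week without RA, and 0, 0 and 1 for RA at day 7, day 14 and over both days, and the block changed none of these by over 1.5 times. Over all 11574 genes the block gave 1151, 1951, 400, 429, 628 and 797 calls in these comparisons. The main fit gave 1016, 1813, 342, 367, 557 and 740. Deviations from the group mean had a mean correlation of 0.018 between same-numbered cultures, with a range of −0.035 to 0.099. Between differently numbered cultures the mean was −0.009. At 47 to 162 counts over 15 libraries, Pole2, Gins1, Rpa3, Orc1, Gins4, Orc6 and Lig1 can show only large differences.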
